A study of Mus musculus with 9 samples.

Results

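Testis RNA of busulfan-treated mice that had been injected with exosomes taken from mice whose intestinal microbiota was out of balance (BdE) was compared with testis RNA of busulfan-treated mice that had been injected with PBS (BP). The genes were those with an FPKM (fragments relative to gene length and sequencing depth) of 1 or more in at least 3 of these 6 libraries. The rule kept 14049 of the 55401 genes in the deposited table. Of these, 12104 reached the value in all 6 libraries, 73 in the 3 BdE libraries alone and 174 in the 3 BP libraries alone. The other 1698 passed in some other set of libraries. A gene that entered only through the group in which it was high had to differ between the groups. The 604 genes that reached the value in exactly 3 libraries had a median FPKM of 1.04, and the 607 that reached it in exactly 2 and stayed out had a median of 0.88.

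The labels give the treatments as PBS+Busulfan (BP, replicates 5, 6 and 7) and dEXO+Busulfan (BdE, replicates 5, 6 and 7), so busulfan is common to both groups. Another group of the series, EXO+Busulfan (BE, replicates 6, 7 and 8), received blood exosomes of wild-type donors and appears below only as levels beside the others. The design describes the animals as a model of germ cell depletion. The sources used here do not give strain, age, doses, times or the number of animals per library. The labels do not say that the replicates were separate animals, so the p-values measure only the spread between these samples.

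Busulfan is an alkylating drug that kills spermatogonia and leaves the somatic cells of the testis: Sertoli cells, which nurse germ cells inside the tubule, peritubular myoid cells around it, and Leydig cells, vessels and macrophages between the tubules. Leydig cells make testosterone from cholesterol, which they synthesise or take up, under the control of luteinizing hormone. Exosomes are small vesicles of endosomal origin that carry protein, lipid and RNA between cells, and the host's gut bacteria are known to affect what circulates in blood.

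The 6 libraries held 57923652 to 70103125 counts. All 16 genes of the Leydig list and all 21 of the Sertoli list passed the FPKM filter, as did 5 of 16 spermatid genes. Only 2 of 12 photoreceptor genes passed, which were counted because the labels' extraction protocol speaks of retinas. These 2 summed to an FPKM of 9.47 to 11.1 in the BP libraries and 9.59 to 13.6 in the BdE libraries. Neither was called (0 also at an unadjusted p under 0.05 and in DESeq2). Opn1sw, Pde6b and Crx of the photoreceptor list had 0 counts in all 6 libraries. BP 5 stood apart in 22 genes typical of the epididymis, a list chosen after the values were seen: they summed to 86251 counts there, 0.149% of the library, with 16 of 22 detected, against 1306 to 2344 counts in the other 5 libraries. In BdE 7, 12 of the 22 were detected, and in the other 4 libraries 3 to 5. The fat cell hormone gene Adipoq had 707 counts in BdE 7 and 0 to 212 in the other libraries. The haemoglobin genes were highest in BdE 6, for example Hbb-bs with 6764 counts against 1593 to 3884. Of the 5 red cell genes and 4 fat cell genes tested, 0 passed in edgeR's test, at an unadjusted p under 0.05 and in DESeq2. The part of these cells in the results was not tested.

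A share of counts and a trend on length separated the groups. The mitochondrial genome gave 7.10%, 7.45% and 8.01% of counts in BP 5, 6 and 7, and 11.8%, 12.2% and 13.4% in BdE 5, 6 and 7 (7.52% ± 0.46 and 12.5% ± 0.83, SD, n = 3). The exact two-sided permutation test of the difference gave p = 0.1, the smallest value that 3 against 3 libraries allow. Each gene's expression, taken relative to its average, had a rank correlation with gene length of 0.180 to 0.268 in the BP libraries and -0.247 to -0.104 in the BdE libraries. In BE 6, 7 and 8 the correlation was 0.235, -0.181 and -0.206, so the trend is not particular to BdE. In the shortest 10% of genes the median log2 fold change was 0.30, with 161 genes higher and 26 lower. In the longest 10% it was -0.15, with 84 higher and 301 lower. Of the 202 called genes named below, 171 passed also with an offset that removes the length trend from each library. The others are named in their paragraphs, beside the counts of lists that the offset moved by over 1.5 times.

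**Figure D1:**
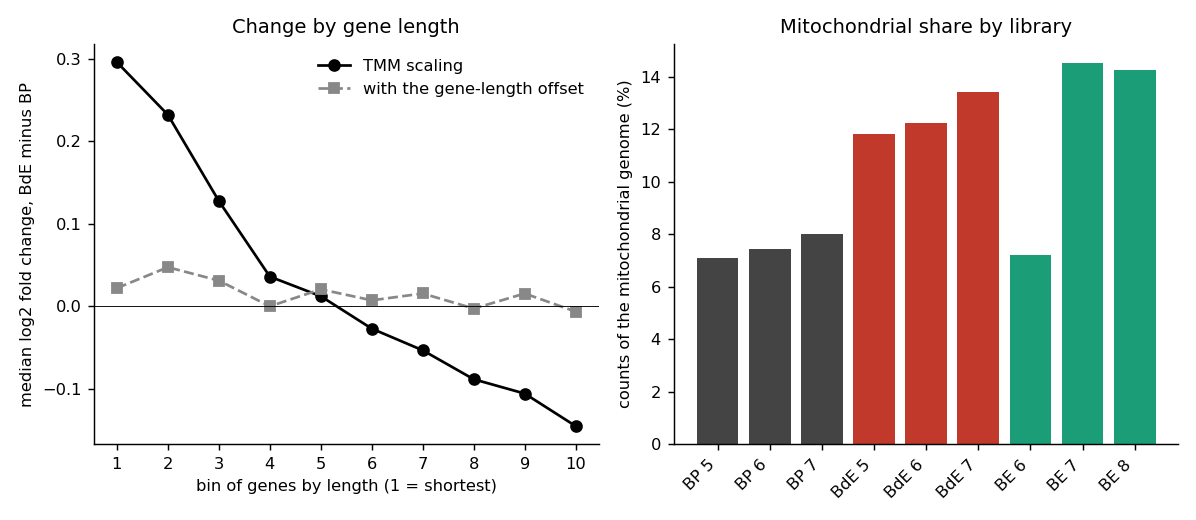
Left, the median log2 fold change (BdE minus BP) of 10 bins of genes ordered by length, with TMM scaling and with the gene-length offset; it falls from 0.30 in the shortest bin to -0.15 in the longest and stays within 0.05 of 0 with the offset. Right, the percentage of counts that the mitochondrial genome gave in each library, 7.10% to 8.01% in BP, 11.8% to 13.4% in BdE, and 7.19% in BE 6 beside 14.5% and 14.2% in BE 7 and BE 8.

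Of the 14049 genes, 3113 passed an adjusted p of 0.05 in edgeR's quasi-likelihood test (22.2%), 1384 of them higher (9.85%) and 1729 lower (12.3%) in BdE. In each of the 3113 the BP and BdE libraries did not overlap, which held for 44.6% of all genes tested. Changes were small in most: the median size over the called genes was 0.55 on the log2 scale, and 134 rose and 287 fell by 1 or more. With the length offset 2690 genes passed (19.1%; 8.98% higher and 10.2% lower), 2275 of them called in the same direction without it. DESeq2 called 4444 (31.6%; 14.7% higher and 16.9% lower). The share of higher calls was 44.5% with TMM scaling, 30.8% with library totals, and 31.4% and 31.5% with limma on log2(FPKM + 1) and log2(FPKM + 0.1). Scaling by library totals lowered the median fold change by 0.07.

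The calls rested on a spread estimated from the 6 libraries. When BE was added to the model and all 9 libraries shared 1 estimate of the spread, 1 gene passed (0.00712%), Ccdc71 (3432 genes at an unadjusted p under 0.05, against 5349 with 6 libraries). With 1 library left out the count ran from 870 (without BP 6) to 3181 (without BdE 6). It was 1345 without BP 5, 1113 without BP 7, 1115 without BdE 7 and 2556 without BdE 5. There were 712 genes, 207 higher and 505 lower, called with all 6 libraries and with each left out in turn. The genes given below with a test belong to those 712 unless the sentence or a later one in the paragraph says which library's removal ended the call.

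**Figure D2:**
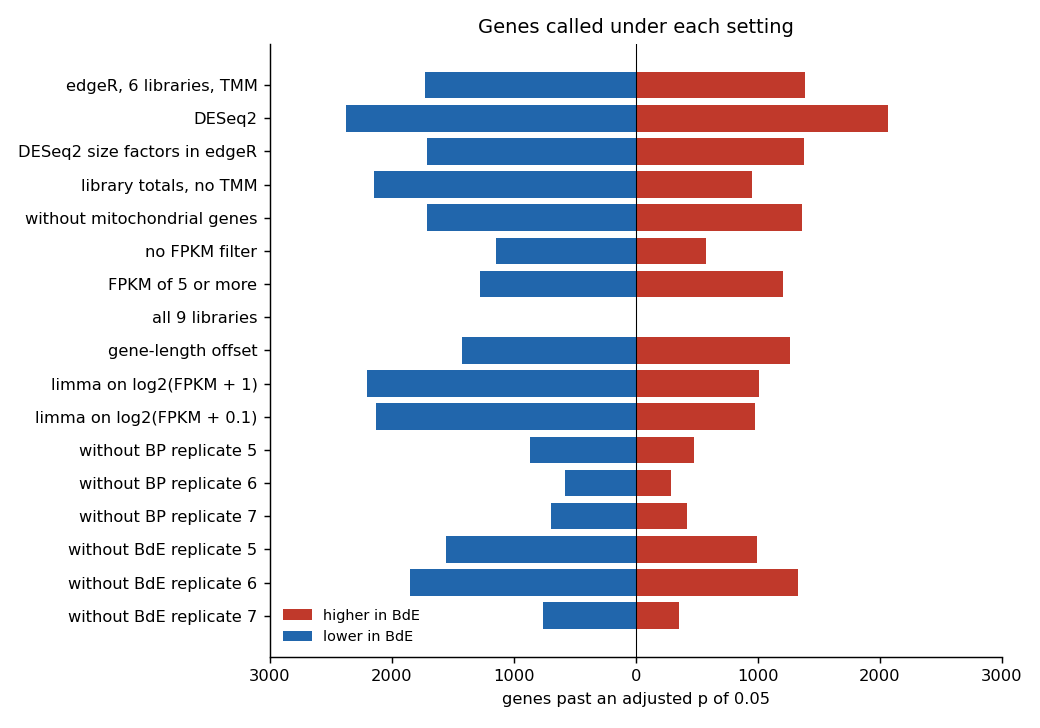
Number of genes past an adjusted p of 0.05 under each setting, those higher in BdE to the right and those lower to the left. The 6-library edgeR test gives 1384 and 1729, the model with all 9 libraries gives 1 and 0, and leaving out BP 6 gives 288 and 582.

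The largest falls were in genes of very different functions. Chml (chr1:175682237-175692630, GRCm38), which codes for a Rab escort protein that presents Rab GTPases for prenylation, stood at 9.13, 7.87 and 8.57 CPM (counts scaled to library size) in BP 5, 6 and 7 and at 0.221, 0.288 and 0.222 CPM in BdE 5, 6 and 7. The BdE values rest on 14 to 19 counts per library, and the groups are far from overlapping. It fell by 5.12 on the log2 scale (SE 0.20, adjusted p = 0.00175). Its mean FPKM was 1.09 in BP and 0.029 in BdE, so it entered only through BP and had to differ. Its partner Chm, which has the same role and was chosen after its values were seen, held 11.8, 13.2 and 12.3 CPM in BP and 13.5, 11.3 and 12.5 CPM in BdE and did not pass (adjusted p = 0.993). Chml overlaps Opn3, which had 652 to 741 counts in BP and 766 to 1084 in BdE, and no source used here gives the strand setting of the counting, so reads of the overlap cannot be told apart. Chml was not low throughout the exosome groups: BE 6, 7 and 8 held 7.55, 2.10 and 11.3 CPM.

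Zfp260, a zinc finger transcription factor gene, had 29.4, 13.1 and 34.1 CPM in BP and 0.738, 1.58 and 2.11 CPM in BdE, and fell by 4.11 (SE 0.53, adjusted p = 0.00841). BP 6 was the lowest of the controls and still far above every BdE library. Ablim1, an actin-binding LIM protein gene, went from 49.3, 66.1 and 54.2 to 5.81, 6.33 and 3.94 CPM and fell by 3.40 (SE 0.22, adjusted p = 0.00419). Its mean FPKM was 4.23 in BP and 0.38 in BdE, so it entered only through BP and had to differ. Steap3, an endosomal iron reductase gene, fell by 2.64 (SE 0.22, adjusted p = 0.00431), from 15.7, 20.7 and 15.6 to 2.36, 3.51 and 2.48 CPM. Egflam, which codes for the matrix protein pikachurin, fell by 2.56 and C1qtnf1, a secreted C1q-like protein, fell by 2.09 (adjusted p = 0.00432 and 0.00935). Pcdhgc3, a clustered protocadherin gene that shares sequence with its neighbours, fell by 2.58 (adjusted p = 0.00507). Cd300ld3 and Cd300ld5, near-identical genes of a myeloid receptor family, fell by 3.23 and 3.57, and how reads were divided between them is uncertain. Their mean FPKM was 5.47 and 4.32 in BP and 0.54 and 0.34 in BdE. Both entered only through BP and had to differ.

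Other large falls were less even among the libraries. Ust, a sulfotransferase gene, held 40.99, 14.4 and 43.9 CPM in BP and 5.52, 5.46 and 7.34 CPM in BdE, with BP 6 well below the other controls. It fell by 2.44 and did not pass without BP 7 or BdE 7 (adjusted p = 0.0506 and 0.0507). Vgll3, a transcriptional cofactor gene, fell by 2.26 from 49.5, 25.1 and 18.2 to 9.01, 5.97 and 4.45 CPM and did not pass without BP 6 or BdE 7. Ikbkg, the regulatory subunit of the IκB kinase, fell by 2.08 and did not pass without BP 5, BP 7 or BdE 7; it overlaps G6pdx. Hyal1, a lysosomal hyaluronidase gene that overlaps Naa80, fell by 2.28 and did not pass without BP 6 or BP 7. Mgll, the monoacylglycerol lipase gene, fell by 2.05 and did not pass without BP 5, BP 7 or BdE 7. Nt5c1a, a cytosolic nucleotidase gene, fell by 2.29 and did not pass without BP 5, BP 6 or BdE 7.

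The smallest p-values belonged mostly to falls with tight replicates. Add1, which codes for the membrane skeleton protein adducin, held 350.4, 394 and 423 CPM in BP and 107, 105 and 104 CPM in BdE and fell by 1.88 (SE 0.081, adjusted p = 0.00175). Nedd4, a ubiquitin ligase gene, went from 257, 244 and 286 to 91.2, 95.97 and 93.3 CPM and fell by 1.49 (SE 0.074, adjusted p = 0.00295). Dag1, which codes for dystroglycan, the link between laminin and the cytoskeleton, fell by 1.04 (SE 0.060, adjusted p = 0.00314), from 355, 387 and 394 to 187, 184 and 182 CPM. In these 3 genes the BdE libraries lay close together and far from the controls. Nfe2l1, a transcription factor gene that controls proteasome genes, fell by 1.93, and Cdk19, a Mediator kinase gene, by 1.48. Dcaf17, a ubiquitin ligase receptor gene that overlaps Mettl8, fell by 1.86. With a mean FPKM of 2.93 in BP and 0.76 in BdE, Dcaf17 entered only through BP and had to differ. Cdc42se1, a gene for a small binding partner of the GTPase CDC42, rose by 0.89 (SE 0.051, adjusted p = 0.00314), while its BE libraries held 146, 65.6 and 86.1 CPM, none of them near BdE.

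**Figure D3:**
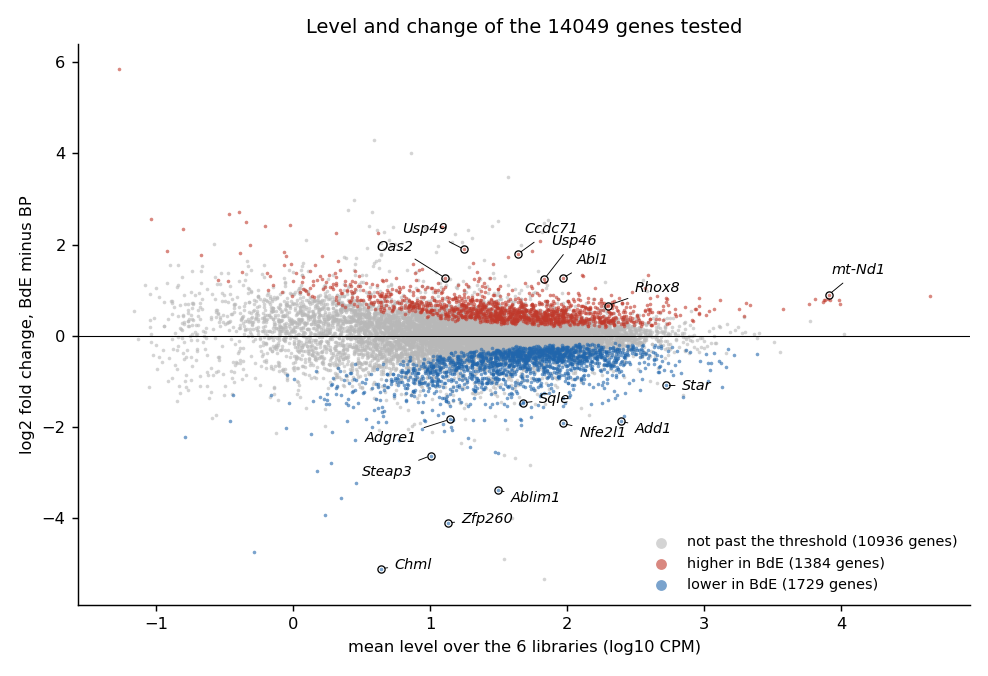
Each point is 1 of the 14049 genes, placed by its mean level over the 6 libraries (log10 CPM) and its log2 fold change (BdE minus BP); red and blue mark the 1384 and 1729 genes that passed higher and lower. Chml (-5.12), Zfp260 (-4.11) and Ablim1 (-3.40) are the lowest of the circled genes, and Usp49 (1.89) and Ccdc71 (1.79) are the highest of the circled genes.

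Among genes with at least 10 counts in every library, predicted genes and pseudogenes aside, the largest rises were smaller than the largest falls. Usp49, a histone H2B deubiquitinase gene, held 6.76, 6.98 and 8.70 CPM in BP and 29.9, 19.8 and 33.7 CPM in BdE and rose by 1.89 (SE 0.23, adjusted p = 0.00747). It overlaps Tomm6, which had 354 to 588 counts in BP and 589 to 932 in BdE. Ccdc71 (chr9:108460527-108465938), a coiled-coil protein gene, went from 18.3, 16.8 and 23.5 to 72.3, 61.3 and 69.4 CPM and rose by 1.79 (SE 0.15, adjusted p = 0.00431). It was the gene that passed also with all 9 libraries, at an adjusted p of 0.00967. Klhdc8b, which overlaps it and was chosen for that, rose by 0.53 and did not pass without BP 6. Slc39a9, a zinc transporter gene that overlaps Erh, rose by 1.72 from 12.8, 17.9 and 20.4 to 57.8, 55.3 and 55.97 CPM (adjusted p = 0.00564). Abl1, a tyrosine kinase gene, rose by 1.26 (SE 0.11, adjusted p = 0.00482), from 45.5, 58.3 and 59.6 to 126, 131 and 134 CPM.

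The other large rises were in genes of varied function. Usp46, another deubiquitinase gene, rose by 1.24 from 39.1, 42.3 and 39.5 to 107, 89.2 and 89.1 CPM, and the groups lay far apart. Dynll1, the dynein light chain gene, rose by 1.33 (adjusted p = 0.01), with BdE 7 at 129.7 CPM below BdE 5 and 6 at 208 and 209 CPM. Amn1 rose by 1.60, Emp1, an epithelial membrane protein gene, by 1.46, Memo1, which takes part in receptor tyrosine kinase signalling, by 1.25, and Ecrg4, a secreted peptide precursor gene, by 1.38. Egfl8, which overlaps Agpat1, rose by 1.45 and did not pass without BP 6 or BP 7. Dnajb3, a chaperone gene at under 2 CPM that overlaps genes of the Ugt1a cluster, rose by 1.30 and did not pass without BP 5, BP 7 or BdE 7. Amn1, Emp1, Egfl8 and Dnajb3 entered only through BdE and so had to differ. Their mean FPKM was 0.48, 0.70, 0.59 and 0.57 in BP and 1.38, 1.84, 1.54 and 1.34 in BdE. Tmprss5, a serine protease gene, rose by 1.22 and passed with 1 library removed only for BdE 6, which at 5.996 CPM lay near the controls; with the length offset its adjusted p was 0.0527.

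The genes of Leydig cell steroid synthesis that passed in edgeR's test were lower in BdE. Of 16 genes tested, 0 rose and 6 fell (DESeq2 called 1 higher and 9 lower), with a list median of -0.52 against 0.01 over all genes tested. Hsd3b1 (chr3:98852194-98859794), the enzyme that turns pregnenolone into progesterone, held 773, 770.2 and 777 CPM in BP and 568, 518 and 491 CPM in BdE. The 3 controls were nearly equal and every BdE library lay below them; the gene fell by 0.56 (SE 0.070, adjusted p = 0.00797). Star, which carries cholesterol into mitochondria, went from 534, 808 and 794 to 275, 418 and 308 CPM and fell by 1.09 (SE 0.22, adjusted p = 0.0202). Lhcgr, the receptor for luteinizing hormone, fell by 0.87 (SE 0.16, adjusted p = 0.0154), and Scarb1, the receptor that takes up cholesterol from high-density lipoprotein, by 0.48 (SE 0.11, adjusted p = 0.028).

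The other called members, chosen here after their values were seen, were Cyp17a1, the enzyme that makes androgens from progesterone, at -1.12, and Hsd3b6 at -0.86. Cyp17a1 held 1742, 1938 and 1799 CPM in BP and 602, 1269.8 and 646 CPM in BdE, and BdE 6 stood well above BdE 5 and 7. The same library stood apart in Cyp11a1, the side-chain cleavage enzyme, with 1061, 1029 and 862 CPM in BP and 232, 685 and 283 CPM in BdE. Cyp11a1 did not pass (log2 fold change -1.30, SE 0.41, adjusted p = 0.0688), although the groups do not overlap. The Leydig hormone gene Insl3 had the opposite sign and did not pass (log2 fold change 0.31, adjusted p = 0.0721), with 5133, 5573 and 5071 CPM in BP and 6061, 6995 and 6558 CPM in BdE. Its groups do not overlap either, and it was the gene that DESeq2 called higher. Nr5a1, the transcription factor that drives the steroid enzymes, also chosen after its values were seen, lay at 361, 399.9 and 430.2 CPM in BP and 427, 398 and 388 CPM in BdE. In bulk tissue fewer cells of a type and less RNA per cell cannot be told apart. Without BP 6, 1 of the 16 passed; Star and Lhcgr did not pass without BP 6 or BP 7, Star also not without BdE 7, and Scarb1, Cyp17a1 and Hsd3b6 failed on removal of at least 4 of the 6 libraries. Scarb1 did not pass with the length offset (adjusted p = 0.0709).

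Most genes of cholesterol synthesis had lower levels in BdE: 19 of 20 members had a negative fold change, 0 rose and 6 fell, and the median was -0.63. This is 30% called, beside 22.2% of all genes. Sqle (chr15:59315077-59331192), the squalene epoxidase gene, held 65.2, 70.1 and 73.5 CPM in BP and 19.6, 34.3 and 21.1 CPM in BdE. The groups did not overlap, with BdE 6 the highest of the BdE libraries, and the gene fell by 1.48 (SE 0.22, adjusted p = 0.0107). Idi1, which isomerises the isoprene unit, fell by 1.28 (SE 0.19, adjusted p = 0.0105), from 55.2, 50.4 and 62.9 to 21.9, 29.3 and 18.1 CPM. Cyp51, the sterol demethylase gene, fell by 1.18 and did not pass without any of BP 5, BP 6, BP 7 and BdE 7. Without BdE 6 as many as 16 members passed, and 3 passed without BP 5.

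Of 15 tested genes that regulate or move sterols, 0 rose and 4 fell (26.7% called, beside 22.2% of all genes), with a median of -0.31. Scap, which escorts the SREBP transcription factors out of the endoplasmic reticulum when sterols are low, held 228, 239 and 238 CPM in BP and 147, 173 and 142 CPM in BdE and fell by 0.61 (SE 0.085, adjusted p = 0.00946). Srebf2, the SREBP that drives cholesterol genes, fell by 0.92 from 107, 73.9 and 100.5 to 36.96, 67.3 and 44.7 CPM, with the highest BdE library just below the lowest control. Srebf1, its counterpart for fatty acid genes, fell by 0.35 and Soat1, which esterifies cholesterol, by 0.31. Soat1 did not pass with any 1 of the 6 libraries left out, and Srebf1 and Srebf2 kept their calls only without BdE 6. Without BP 5, 1 of the 15 passed. Scap was the only 1 of the 15 that passed with the length offset.

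Since the cholesterol and, below, the interferon genes are known to share promoter elements, the promoters of 2 members of each are shown (RefSeq, GRCm38.p6, 250 bases before to 50 after the start). In the first pair capitals mark the sterol regulatory element TCACNCCAC and the CCAAT box, either strand. Hmgcs1, the HMG-CoA synthase gene, is on chr13:119690101-119690400 (plus strand) and Idi1 on chr13:8885356-8885655 (plus strand).
Hmgcs1: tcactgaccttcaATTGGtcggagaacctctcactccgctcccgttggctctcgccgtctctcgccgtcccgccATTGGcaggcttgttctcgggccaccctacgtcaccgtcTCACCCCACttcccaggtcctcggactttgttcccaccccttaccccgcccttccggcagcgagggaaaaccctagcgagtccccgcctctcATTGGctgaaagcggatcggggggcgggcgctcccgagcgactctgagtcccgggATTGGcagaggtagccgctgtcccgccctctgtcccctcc
Idi1: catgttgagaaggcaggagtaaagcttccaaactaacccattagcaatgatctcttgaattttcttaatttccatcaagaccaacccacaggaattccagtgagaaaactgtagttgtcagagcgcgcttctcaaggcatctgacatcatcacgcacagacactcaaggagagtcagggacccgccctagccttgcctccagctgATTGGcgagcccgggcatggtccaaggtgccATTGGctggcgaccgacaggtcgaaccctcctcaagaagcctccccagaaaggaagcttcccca
The Hmgcs1 window held 1 sterol element, starting 137 bases before the start site, and 4 CCAAT boxes, and the Idi1 window held 2 CCAAT boxes. Of 15 cholesterol genes with a promoter in the table, 13 held a CCAAT box, against 38.6% of the 9745 promoters of genes tested, and 1 held the sterol element, against 1.12%. Hmgcs1 itself, shown for its element after its values were seen, held 288, 297 and 363 CPM in BP and 191, 244 and 179 CPM in BdE and fell by 0.63 (SE 0.15, adjusted p = 0.0304), and kept its call only without BdE 6. The element CAAGGTCA, which the factor of Nr5a1 binds, was in 0 of 11 Leydig promoters and in 1.13% of the promoters of genes tested. A match of letters is a description of the window and not a binding site.

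The genes of fatty acid synthesis and of fatty acid oxidation that passed were lower in BdE. Of 17 genes of synthesis and desaturation, 0 rose and 10 fell (median -0.50), and of 15 genes of oxidation, 0 rose and 7 fell (median -0.38). Fads2 (chr19:10062765-10101746), a desaturase that makes polyunsaturated fatty acids, held 1347, 1403 and 1508 CPM in BP and 712, 785 and 648 CPM in BdE and fell by 0.99 (SE 0.093, adjusted p = 0.00545). The groups did not overlap, and BdE 6 was the highest of the BdE libraries. Scd1, the stearoyl-CoA desaturase gene, fell by 1.31 (SE 0.15, adjusted p = 0.00696), from 145, 154 and 147 to 46.4, 65.2 and 68.2 CPM. Fasn, the fatty acid synthase gene, fell by 0.75 and Acly, which supplies its acetyl-CoA, by 0.71 (adjusted p = 0.00797 and 0.0073).

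Among oxidation genes, Hadha, the alpha subunit of the mitochondrial trifunctional protein, went from 256, 263 and 263 to 154, 174 and 148 CPM and fell by 0.72 (SE 0.073, adjusted p = 0.00591). Etfdh, which passes the electrons to ubiquinone, fell by 0.82 (SE 0.086, adjusted p = 0.00597). Acaa2, a thiolase gene, fell by 0.48 and Echs1, the hydratase gene, by 0.45; Acaa2 did not pass without any 1 of the 3 BP libraries, and Echs1 passed only without BdE 6 and not with the length offset (adjusted p = 0.0805). Without BP 6, 5 of the 17 synthesis genes passed, and without BP 5, 2 of the 15 oxidation genes.

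**Figure D4:**
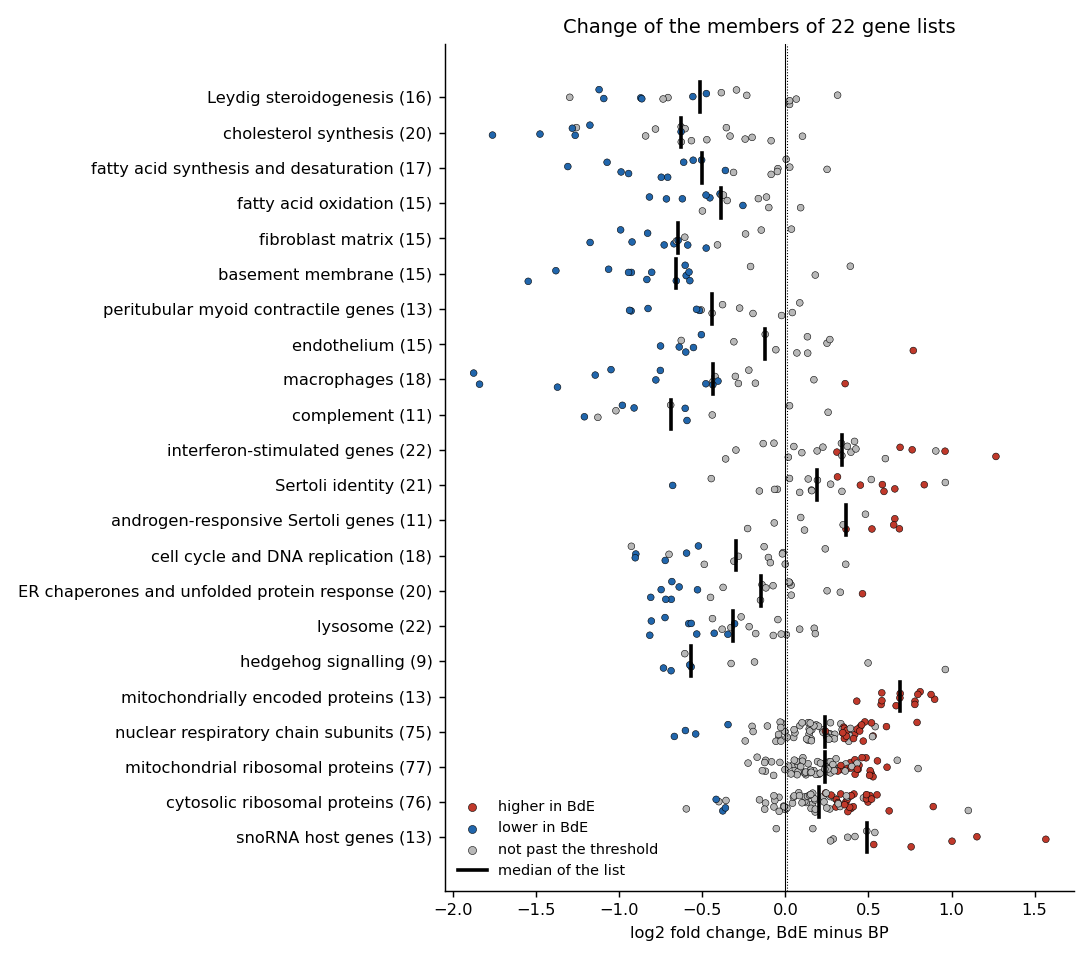
Each point is a tested member of a gene list (number of members in brackets), placed by its log2 fold change, BdE minus BP; red and blue points passed the test and the black bar is the list median. Medians of the 22 lists drawn run from -0.69 for complement and -0.66 for basement membrane to 0.69 for the mitochondrially encoded proteins, beside 0.01 over all genes tested (dotted).

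The genes of connective tissue and of the basement membrane around tubules and vessels that passed were lower in BdE. Of 15 basement membrane genes, 0 rose and 12 fell (median -0.66), and of 15 fibroblast matrix genes, 0 rose and 9 fell (median -0.65). Col4a2, a chain of type IV collagen, held 163, 178 and 176 CPM in BP and 88.8, 96.7 and 83.7 CPM in BdE and fell by 0.94 (SE 0.075, adjusted p = 0.00419). Lamc1, the shared gamma chain of most laminins, fell by 0.93 (SE 0.086, adjusted p = 0.00507), and Nid1, which joins laminin to collagen, by 0.80 (SE 0.089, adjusted p = 0.00645). Itgb1, the beta chain of the integrins that bind them, went from 291, 298 and 297 to 202, 197 and 196 CPM and fell by 0.58 (SE 0.047, adjusted p = 0.00431). The 3 members that did not pass, named after their values were seen, were the laminin chains Lama1, Lama5 and Lamb2, at log2 fold changes of 0.18, 0.39 and -0.21.

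Among the interstitial collagens, Col3a1 (chr1:45311538-45349706) held 139, 134 and 123 CPM in BP and 73.3, 69.2 and 66.4 CPM in BdE, and no library of either group came near the other. It fell by 0.92 (SE 0.074, adjusted p = 0.00419). Fbn1, the gene of the microfibril protein fibrillin, fell by 0.99 (SE 0.11, adjusted p = 0.00645), Col6a2 by 0.83 and Col1a2 by 0.73 (adjusted p = 0.0103 and 0.0117). With the length offset the counts were 10 of 15 and 8 of 15 lower, and the medians -0.54 and -0.59. The fewest calls with 1 library left out were 6 for the basement membrane list (without BP 6) and 4 for the fibroblast list (without BP 5).

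The contractile genes of peritubular myoid cells followed with 0 of 13 higher and 5 lower (median -0.44). Lmod1, which nucleates actin filaments in smooth muscle, went from 29.8, 33.3 and 30.9 to 19.2, 15.2 and 14.6 CPM and fell by 0.94 (SE 0.13, adjusted p = 0.00946). Des, the gene of the intermediate filament desmin, fell by 0.83 (SE 0.10, adjusted p = 0.00775), from 40.4, 42.9 and 44.7 to 26.7, 23.4 and 22.03 CPM. Cald1, caldesmon, fell by 0.93 and Actg2, the enteric smooth muscle actin, by 0.54; Cald1 did not pass without BP 6 or BP 7, and Actg2 passed only without BdE 5 or BdE 6. Acta2, the usual marker of these cells, did not pass (log2 fold change -0.44, adjusted p = 0.0617), with BdE 5 at 350.4 CPM close to the lowest control at 383 CPM. Without BP 6, 2 of the 13 passed.

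Endothelial genes were split, with 1 of 15 higher and 5 lower (median -0.12). Cdh5, the cadherin of endothelial junctions, held 52.5, 59.1 and 49.2 CPM in BP and 29.97, 37.1 and 39.02 CPM in BdE and fell by 0.60 (adjusted p = 0.0233). Vwf, the gene of von Willebrand factor, fell by 0.55, Ptprb, an endothelial phosphatase gene, by 0.64, and Tek, the angiopoietin receptor gene, by 0.75 (adjusted p = 0.0196, 0.0152 and 0.0269). None of these 4 passed without BP 6 or BP 7, and without BP 6, 0 of 15 passed in edgeR's test (6 at an unadjusted p under 0.05). Cdh5, Vwf and Ptprb failed also without BdE 7, Cdh5 and Tek without BP 5, and Tek without BdE 5 or BdE 6. The member that rose, chosen after its value was seen, was Sox17, an endothelial transcription factor, by 0.77 and did not pass without BP 5, BP 6, BP 7, BdE 5 or BdE 7. The length offset left 1 of 15 higher and 3 lower (median -0.074), and Vwf did not pass with it (adjusted p = 0.0535).

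The macrophage genes that passed were lower in BdE, with 1 exception. Of 18 tested, 1 rose and 10 fell, with a median of -0.44. Adgre1 (chr17:57358691-57483527), which codes for F4/80, the standard surface marker of mouse macrophages, held 19.7, 23.1 and 22.2 CPM in BP and 6.87, 6.51 and 4.75 CPM in BdE. Each BdE library had under 7 CPM and each control over 19 CPM, and the gene fell by 1.84 (SE 0.17, adjusted p = 0.00507). Itgam, the integrin chain CD11b, fell by 1.88 (SE 0.19, adjusted p = 0.00564), from 12.2, 17.6 and 13.4 to 3.44, 4.40 and 3.91 CPM. Lyz2, the lysozyme of myeloid cells, fell by 1.14 (SE 0.14, adjusted p = 0.00775), from 245, 251 and 264 to 118, 134 and 91.4 CPM. Mrc1, the mannose receptor of resident macrophages, fell by 0.41 (SE 0.056, adjusted p = 0.00935). The member that rose, chosen after its value was seen, was Fcer1g, the shared signalling chain of Fc receptors, by 0.36 (adjusted p = 0.024); it kept its call only without BdE 5 or BdE 6. It did not pass with the length offset (adjusted p = 0.199), when 0 rose and 12 fell. Without BP 6, 6 of the 18 passed.

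**Figure D5:**
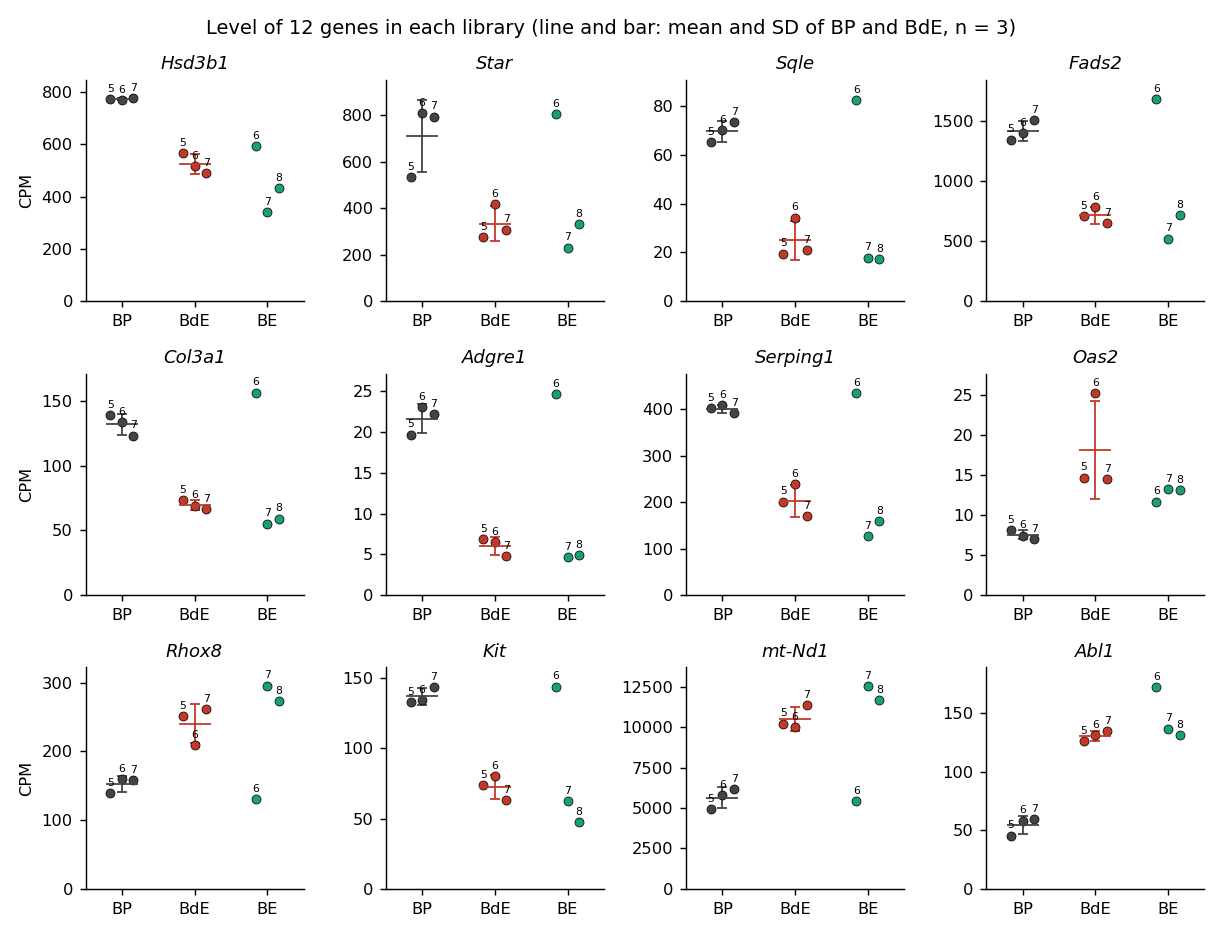
Level of 12 genes in CPM in every library, with the replicate number beside each point and the mean and SD of BP and BdE (n = 3). In all 12 panels the BdE points lie apart from the BP points; BE 6 lies near BP in most panels and BE 7 and BE 8 near BdE.

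Complement genes, which the testis makes in several somatic cells, had 0 of 11 higher and 5 lower and a median of -0.69. Serping1, the gene of the C1 inhibitor, held 402, 409 and 391.97 CPM in BP and 201, 239 and 169.5 CPM in BdE and fell by 0.98 (SE 0.12, adjusted p = 0.00797). C7, a component of the membrane attack complex, fell by 1.21 (SE 0.13, adjusted p = 0.00645), from 303, 323 and 284 to 109, 154 and 130.5 CPM. C2, a protease of the classical pathway, fell by 0.91, and C1s1, the protease of the C1 complex, by 0.60 (adjusted p = 0.0109 and 0.00545). At least 4 of the 11 passed with each library left out in turn.

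Of 6 MHC class II genes 0 passed in edgeR's test (1 at an unadjusted p under 0.05 and 1 in DESeq2). Cd74, the invariant chain, was one of them (log2 fold change -0.63, SE 0.23, adjusted p = 0.0968). Of 11 genes of class I presentation 0 rose and 3 fell (27.3% called, beside 22.2% of all genes). Tapbp, tapasin, which loads peptides, held 232, 230.2 and 237 CPM in BP and 138, 144 and 137 CPM in BdE and fell by 0.74 (SE 0.050, adjusted p = 0.00419); it overlaps Zbtb22. Erap1, which trims the peptides, fell by 0.46 and Fcgrt, the neonatal Fc receptor, by 0.54, and neither passed without any 1 of the 3 BP libraries. Of 13 lymphocyte genes 3 passed the filter: Cd4, also made by macrophages, fell by 1.01 from 9.57, 7.88 and 6.51 to 3.64, 4.64 and 3.61 CPM and did not pass without BP 5, BP 6 or BdE 7, and the other 2 did not pass. With a mean FPKM of 1.77 in BP and 0.83 in BdE, Cd4 entered only through BP and had to differ. Without BP 5, 1 of the 11 class I genes passed.

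The interferon-stimulated genes that passed rose. Of 22 tested, 5 rose and 0 fell (22.7% called, near the 22.2% of all genes), and the median was 0.34. Oas2 (chr5:120730333-120749853), which makes the messenger that activates RNase L, held 8.12, 7.43 and 6.99 CPM in BP and 14.7, 25.2 and 14.4 CPM in BdE. BdE 6 was the highest by a wide margin, and the gene rose by 1.27 (SE 0.24, adjusted p = 0.0181). Ifit3, which restricts viral RNA, rose by 0.96 (SE 0.18, adjusted p = 0.0181), from 7.94, 8.02 and 8.71 to 12.6, 19.99 and 15.5 CPM. Irf7, a transcription factor that amplifies the response, rose by 0.76 and Ifitm3, a membrane protein that blocks viral entry, by 0.69 (adjusted p = 0.0214 and 0.0219). None of these 4 passed without any 1 of the 3 BP libraries, and without BP 5, 0 of 22 passed in edgeR's test (8 at an unadjusted p under 0.05). Ifit3 and Ifitm3 failed also without BdE 7. The length offset left 4 of 22 higher and Ifitm3 short of the threshold (adjusted p = 0.0531).

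The promoters of Ifit3 (chr19:34583279-34583578, plus strand) and Ifitm3 (chr7:141010695-141010994, minus strand), again from RefSeq (GRCm38.p6), are shown with the core of the interferon-stimulated response element in capitals, which is 2 GAAA repeats 2 bases apart on either strand.
Ifit3: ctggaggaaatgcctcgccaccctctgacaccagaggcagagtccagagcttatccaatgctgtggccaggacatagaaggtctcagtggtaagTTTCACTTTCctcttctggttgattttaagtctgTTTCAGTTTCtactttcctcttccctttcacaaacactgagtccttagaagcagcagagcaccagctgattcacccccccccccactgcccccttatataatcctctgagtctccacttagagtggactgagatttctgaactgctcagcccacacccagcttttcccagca
Ifitm3: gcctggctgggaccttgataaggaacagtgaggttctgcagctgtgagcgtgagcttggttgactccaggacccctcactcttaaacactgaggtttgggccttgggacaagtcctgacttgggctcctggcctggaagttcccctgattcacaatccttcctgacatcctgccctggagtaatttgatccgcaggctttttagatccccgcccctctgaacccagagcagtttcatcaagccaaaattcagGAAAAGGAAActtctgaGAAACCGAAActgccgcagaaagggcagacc
Each window held 2 matches. Of 16 interferon-stimulated genes with a known promoter 12 held the core, against 2.94% of the promoters of genes tested. Among these 12 only Ifit3, Ifitm3 and Ddx58, the last named after its value was seen, passed in edgeR's test. Irf7 rose with 0 matches in its window. Here too a match of letters only describes the window, and a link to the change was not tested.

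In the Toll-like receptor and NF-κB list 1 of 13 rose and 3 fell (median -0.32; 30.8% called, beside 22.2% of all genes). Vcam1, an adhesion molecule that NF-κB induces, held 718, 726 and 777 CPM in BP and 412, 540.00 and 466 CPM in BdE and fell by 0.65 (SE 0.11, adjusted p = 0.0133). Tlr2, a receptor for bacterial lipoproteins, fell by 0.96, and Nfkb1, a subunit of the factor, by 0.53, whereas Nfkbia, its inhibitor, rose by 0.31 (adjusted p = 0.0145, 0.0213 and 0.0456). Vcam1 and Tlr2 did not pass without BP 6, Nfkb1 not without BP 5, BP 7 or BdE 7, and Nfkbia passed only without BdE 6. Without BP 6, 1 of the 13 passed. The length offset left 0 of 13 higher and 2 lower (median -0.25), and Nfkb1 and Nfkbia did not pass with it (adjusted p = 0.0526 and 0.265). Tlr4, Tnf and Il1b stayed below the filter.

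The Sertoli cell genes that passed rose, with 1 exception. Of 21 identity genes 6 rose and 1 fell (median 0.19), and of 11 genes that androgen regulates in Sertoli cells 5 rose and 0 fell (median 0.37). These are 33.3% and 45.5% called, beside 22.2% of all genes. Defb19, a defensin-like gene of Sertoli cells, held 643, 688 and 644 CPM in BP and 1064, 1147 and 1314 CPM in BdE and rose by 0.84 (SE 0.094, adjusted p = 0.00658). Aard, a testis-enriched gene, rose by 0.59 (SE 0.083, adjusted p = 0.00946), from 877, 952 and 972 to 1467, 1291 and 1467 CPM. Rhox8 (chrX:37874778-37878944), an androgen-regulated homeobox gene that is in both lists, rose by 0.66 (SE 0.10, adjusted p = 0.0121), from 139, 159.8 and 158 to 252, 209 and 261 CPM. In all 3 genes the lowest BdE library lay above the highest control.

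Cldn11, the main claudin of the blood-testis barrier and a member of the identity list, rose by 0.31. In the androgen list, Tsx rose by 0.69, Eppin, a protease inhibitor gene, by 0.52, and Fabp5, a fatty acid carrier gene, by 0.37. None of these 4 passed without any 1 of the 3 BP libraries or without BdE 7. Sox9, the master regulator of Sertoli cells, lay at 155, 183 and 189 CPM in BP and 178, 156 and 176 CPM in BdE (adjusted p = 0.751). With the length offset 3 of 21 rose and 2 of 11, and without BP 5, 3 of 21 and 1 of 11 passed. Cldn11, Tsx and Eppin did not pass with the offset (adjusted p = 0.0688, 0.0631 and 0.0612). Trf, the transferrin gene, was the member that fell, by 0.68 (chosen after its value was seen; adjusted p = 0.0191), and it kept its call only without BdE 5 or BdE 6.

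Of 13 tested junction genes of the blood-testis barrier 1 rose, which was Cldn11, and 2 fell (23.1% called, near the 22.2% of all genes). Cldn11 did not pass with the length offset, which left 0 higher and 2 lower. Ctnna1, which ties cadherins to actin, held 286, 354 and 238 CPM in BP and 145, 163 and 161 CPM in BdE and fell by 0.91 (SE 0.15, adjusted p = 0.0128). Vcl, vinculin, fell by 0.77 and did not pass without BP 7 or BdE 7 (adjusted p = 0.0515 and 0.0527). Without BP 7, 1 of the 13 passed. In the list of AMH, inhibin and TGF-β signalling 0 of 20 rose and 3 fell (15% called, beside 22.2% of all genes). The 3 were receptors or their effector. Tgfbr2, the type II receptor, went from 42.7, 40.2 and 41.8 to 18.2, 20.2 and 14.7 CPM and fell by 1.23 (SE 0.13, adjusted p = 0.00628). Tgfbr3, betaglycan, which also presents inhibin, fell by 1.05 (SE 0.12, adjusted p = 0.00645), and Smad4, the shared effector, by 0.38, which did not pass without BP 6 or BdE 7. The offset gave 1 of 20 higher and 3 lower.

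Germ cell genes mostly stayed below the filter, and those above it gave no common direction. Of 10 tested meiosis genes 0 passed in edgeR's test (0 also at an unadjusted p under 0.05 and in DESeq2), with Rec8, a meiotic cohesin, at 26.2, 19.5 and 13.4 CPM in BP and 17.3, 30.4 and 22.8 CPM in BdE. The synaptonemal complex gene Sycp3 ran from 0.552 to 5.86 CPM over the 6 libraries. Ddx4, the germ cell helicase, held 13.2, 10.5 and 2.48 CPM in BP and 8.72, 12.4 and 7.53 CPM in BdE (adjusted p = 0.889), with BP 7 the lowest of all. Of 9 germ cell and piRNA genes 11.1% were called, beside 22.2% of all genes. Tdrd9, a helicase of the piRNA pathway, rose by 0.54 (SE 0.080, adjusted p = 0.0104), from 20.1, 21.2 and 20.03 to 30.9, 29.3 and 28.9 CPM. Dazl, an RNA-binding protein gene of germ cells, did not pass (adjusted p = 0.273).

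In the spermatid list 5 of 16 genes passed the filter and 1 of these rose (20% called, beside 22.2% of all genes). It was Spaca1, an acrosomal membrane protein gene, which rose by 0.66 and kept its call only without BdE 6. Smcp, a gene of the sperm mitochondrial capsule, split the BdE libraries: it held 19.2, 19.6 and 18.9 CPM in BP and 2.18, 151 and 150.3 CPM in BdE. Odf1, a gene of the sperm tail, did the same, with 10.6, 8.26 and 8.07 CPM in BP and 1.31, 68.98 and 72.5 CPM in BdE, and neither passed (adjusted p = 0.199 and 0.183). BdE 5 was thus the lowest and BdE 6 and 7 the highest of the 6 libraries in both. Prm1, Tnp1 and Acrv1 had at most 21 counts in any of these libraries. Of 4 axoneme genes above the filter 3 rose: Tekt2, a microtubule protein of sperm tails and cilia, by 1.31 (SE 0.21, adjusted p = 0.0124), Rsph1 by 0.51 and Ccdc39 by 0.59. Rsph1 kept its call only without BdE 5 or BdE 6 and Ccdc39 only without BdE 6. Without BP 5, 0 of the 5 spermatid genes passed in edgeR's test (1 at an unadjusted p under 0.05) and 1 of the 4 axoneme genes. Spaca1 and Rsph1 did not pass with the length offset (adjusted p = 0.0622 and 0.0646). It left 0 of 5 spermatid genes called in edgeR (1 at an unadjusted p under 0.05; DESeq2 without an offset called 1) and 2 of 4 axoneme genes higher.

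Of 5 tested genes of undifferentiated spermatogonia 1 rose and 2 fell. Zbtb16 (PLZF) held 26.3, 14.9 and 22.6 CPM in BP and 5.34, 10.8 and 7.72 CPM in BdE and fell by 1.42 (SE 0.32, adjusted p = 0.0272), Foxo1 fell by 0.54 and Id4 rose by 0.48. Each of the 3 is also expressed in somatic cells. Zbtb16 did not pass without BP 5, BP 7 or BdE 7, and Foxo1 not without BP 6. Id4 did not pass without any 1 of the 3 BP libraries or without BdE 7. Without BP 5, 1 of the 5 passed. Of 5 genes of differentiating spermatogonia 0 rose and 2 fell. Kit (chr5:75574916-75656722), the receptor of stem cell factor, made by these cells and by Leydig cells, held 133, 134 and 144 CPM in BP and 73.7, 80.4 and 63.3 CPM in BdE and fell by 0.92 (SE 0.099, adjusted p = 0.00639). Ccnd2, a G1 cyclin, fell by 0.88 (SE 0.14, adjusted p = 0.0121).

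The cell cycle list had 0 of 18 higher and 5 lower (median -0.30; 27.8% called, beside 22.2% of all genes), 4 of them minichromosome maintenance genes of the replicative helicase. Mcm6 held 32.7, 30.4 and 27.1 CPM in BP and 18.3, 19.5 and 16.9 CPM in BdE and fell by 0.72 (SE 0.11, adjusted p = 0.0106). Mcm2 fell by 0.90, Mcm3 by 0.52 and Rrm2, a ribonucleotide reductase subunit gene, by 0.90, and each kept its call in at most 2 of the 6 fits without 1 library. Without BP 5, 1 of the 18 passed and the median was -0.068. The length offset left 0 of 18 higher and 2 lower (median -0.37), and Mcm2 and Mcm3 did not pass with it (adjusted p = 0.0627 and 0.0512). Of 15 p53 targets and apoptosis genes 2 rose and 3 fell (33.3% called, beside 22.2% of all genes). Trp53 rose by 0.22 and Mdm2, its inhibitor, by 0.36, while Zmat3 fell by 0.70 and Ccng1 by 0.45. None of these 4 passed without BP 6, when 0 of the 15 passed in edgeR's test (6 at an unadjusted p under 0.05). Nor did any of the 4 pass without BP 7 or BdE 7. Trp53, Mdm2 and Ccng1 failed also without BP 5, and Trp53 without BdE 5. The offset left 2 of 15 higher and 2 lower. Of 16 immediate early genes (12.5% called, beside 22.2% of all genes) Ier2 rose by 0.42 and Klf4 fell by 0.57. Neither passed without BP 5, when 0 of the 16 passed (4 at an unadjusted p under 0.05). Ier2 kept its call only without BdE 6, and Klf4 failed also without BP 6, BP 7 or BdE 7. Ier2 did not pass with the offset (adjusted p = 0.127), which left 0 of 16 higher and 1 lower.

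The 13 protein-coding genes of the mitochondrial genome all rose (13 of 13, median 0.69), beside 9.85% of all genes called higher. Their counts are part of the mitochondrial share given above, so their rise is not a separate result from it. The 13 genes code for subunits of the respiratory chain, counting the ATP synthase, and most of them are transcribed together. mt-Nd1, a subunit of complex I, held 4936, 5815 and 6180.5 CPM in BP and 10217, 9981 and 11365 CPM in BdE and rose by 0.90 (SE 0.13, adjusted p = 0.0096). mt-Nd3 rose by 0.81 (SE 0.12, adjusted p = 0.00966), from 344, 391 and 417 to 590.05, 755 and 677 CPM. mt-Co2 and mt-Co3, of complex IV, rose by 0.78 and 0.78, and did not pass without BP 6. With the length offset 8 of 13 rose (median 0.52), and without BP 6, 2 of 13 passed.

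Nuclear genes of the same complexes were called in both directions. Of 75 tested 19 rose and 4 fell (30.7% called, beside 22.2% of all genes), with a median of 0.24. Ndufb4, a small subunit of complex I, held 46.9, 42.1 and 45.04 CPM in BP and 66.5, 70.2 and 67.7 CPM in BdE and rose by 0.61 (SE 0.072, adjusted p = 0.00728), and Atp5e, the smallest subunit of the ATP synthase, by 0.53 (SE 0.073, adjusted p = 0.00936). Of the 4 members that fell, Atp5b and Atp5a1, the catalytic core of the ATP synthase, fell by 0.60 (SE 0.064) and 0.54 (SE 0.057), with Atp5b at 637, 664 and 662 CPM in BP and 453, 435 and 405 CPM in BdE. The other 2, chosen after their values were seen, were Sdha, the flavoprotein of complex II, at -0.67 and Ndufs1, a complex I subunit, at -0.35; Ndufs1 kept its call only without BP 7, BdE 5 or BdE 6 and did not pass with the offset (adjusted p = 0.0572). With the length offset 10 of 75 rose and 4 fell (median 0.10), and without BP 6, 7 of 75 passed.

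Ribosomal protein genes were called mostly higher. Of 76 genes of the cytosolic ribosome 24 rose and 3 fell (median 0.20), and of 77 of the mitochondrial ribosome 19 rose and 0 fell (median 0.24). These are 35.5% and 24.7% called, beside 22.2% of all genes. Rps16 held 185, 167 and 164 CPM in BP and 240.4, 233 and 249.8 CPM in BdE and rose by 0.49 (SE 0.067, adjusted p = 0.00935), and Rpl27 rose by 0.49 (SE 0.070, adjusted p = 0.00971). Rpl31 and Rpl35 rose by 0.39 and 0.38 and did not pass without BP 6. Mrps6 rose by 0.49 (SE 0.062, adjusted p = 0.00807), from 75.3, 82.1 and 82.3 to 111, 111 and 113 CPM, and Mrpl24 by 0.44. Mrpl51 and Mrpl57 rose by 0.51 and 0.55 and did not pass without BP 7. Mrpl51 failed also without BP 6, and Mrpl57 without BP 5 or BdE 7. With the length offset the medians were 0.12 and 0.16, with 16 and 14 higher and 5 and 0 lower. Without BP 6, 6 of the 76 passed, and without BP 7, 2 of the 77.

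Host genes of small nucleolar RNAs, whose spliced RNA is short-lived and whose introns carry the small RNAs, were higher where they passed: 5 of 13 rose and 0 fell (median 0.49, and 5 of 13 with the length offset). Dancr held 6.63, 6.91 and 7.48 CPM in BP and 16.4, 14.6 and 15.7 CPM in BdE and rose by 1.15 (SE 0.11, adjusted p = 0.00546). Snhg3 rose by 1.00 (SE 0.13, adjusted p = 0.00903), Snhg6 by 0.76 and Zfas1 by 0.53. Snhg6 did not pass without BP 5 or BdE 7, and Zfas1, which overlaps Znfx1, passed only without BdE 6 and not with the offset (adjusted p = 0.0507). Without BdE 7, 2 of the 13 passed.

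In the endoplasmic reticulum 1 of 20 chaperone and unfolded protein response genes rose and 7 fell (median -0.15). Canx, the lectin chaperone calnexin, held 252, 222 and 234 CPM in BP and 155, 155 and 145 CPM in BdE and fell by 0.64 (SE 0.067, adjusted p = 0.00597). Hyou1, a chaperone of the lumen, fell by 0.75 and Dnajc3, a co-chaperone, by 0.68 (adjusted p = 0.0078 and 0.00597). Atf6, a membrane-bound sensor, fell by 0.72 (SE 0.075, adjusted p = 0.00597), from 100.4, 99.99 and 93.03 to 58.6, 63.5 and 56.05 CPM. The member that rose was Ddit3 (CHOP), by 0.46, chosen after its value was seen (adjusted p = 0.0128) and did not pass without BdE 7. Without BP 6, 5 of the 20 passed.

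Of 22 lysosomal genes 0 rose and 9 fell (median -0.32). Ctsd, the protease cathepsin D, held 583, 600.4 and 555 CPM in BP and 280.5, 377 and 336 CPM in BdE and fell by 0.81 (SE 0.11, adjusted p = 0.00955). Gaa, which degrades glycogen, fell by 0.58 (SE 0.060, adjusted p = 0.00591), Gusb, a glucuronidase gene, by 0.72 and Lamp1, a major membrane protein, by 0.57. Gusb and Lamp1 did not pass without BP 6, when 2 of the 22 passed.

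Genes of vesicle release and endocytic uptake, listed because the treatment consists of vesicles, showed no shared direction: 3 of 30 rose and 8 fell, with a median of 0.02. Cltc, the clathrin heavy chain, held 281, 266 and 276 CPM in BP and 147, 160.2 and 145 CPM in BdE, and fell by 0.87 (SE 0.061, adjusted p = 0.00419). Sdc1, a syndecan that takes part in vesicle formation and capture, fell by 1.55 (SE 0.20, adjusted p = 0.00837), from 25.7, 27.8 and 30.9 to 8.19, 12.5 and 8.12 CPM. Hgs, of the sorting complex ESCRT-0, fell by 0.47 (SE 0.065, adjusted p = 0.00936), and Chmp2a, of ESCRT-III, rose by 0.45, which did not pass without BP 5, BP 6 or BdE 7 and not with the length offset (adjusted p = 0.0853). Without BP 5, 3 of the 30 passed. Of 7 Rab prenylation genes 1 rose and 2 fell: beside Chml, Gdi2, which recycles Rab proteins, fell by 0.52 and did not pass without BP 6 or BP 7, and Rabggta, a subunit of the prenyl transferase, rose by 0.37 and did not pass with any 1 of the 6 libraries left out. Without BP 6, 1 of the 7 passed.

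In the hedgehog list, by which Sertoli-derived DHH acts on Leydig and myoid cells, 0 of 9 rose and 4 fell (median -0.57). Smo, the signal transducer, held 41.9, 46.5 and 43.7 CPM in BP and 29.5, 26.3 and 23.6 CPM in BdE and fell by 0.73 (SE 0.10, adjusted p = 0.00966), and Boc, a co-receptor, fell by 0.69 (SE 0.11, adjusted p = 0.0121). Sufu, a negative regulator, fell by 0.57 and Gas1, a co-receptor, by 0.58; Sufu did not pass without BP 5, BP 6 or BdE 7, and Gas1 passed only without BdE 5. Without BP 5, 2 of the 9 passed. Of 15 retinoic acid genes 0 rose and 6 fell (median -0.067). Rxra, a nuclear receptor, went from 99.3, 115 and 113 to 50.4, 54.8 and 36.9 CPM and fell by 1.21 (SE 0.16, adjusted p = 0.00861). Rxrb fell by 0.40, and the retinaldehyde dehydrogenases Aldh1a1 and Aldh1a3 by 0.43 and 0.35. None of those 3 passed without BP 6, BP 7 or BdE 7, and Aldh1a3 failed also without BP 5. Without BP 6, 1 of the 15 passed.

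In the interleukin 6 family 0 of 11 rose and 3 fell (median -0.34; 27.3% called, beside 22.2% of all genes). The length offset left 0 higher and 1 lower (median -0.24). Il6st, the shared receptor gp130, held 231, 244 and 222 CPM in BP and 133, 167 and 144 CPM in BdE and fell by 0.65 (SE 0.094, adjusted p = 0.00986). Stat3, its transcription factor, fell by 0.37 and Jak1, its kinase, by 0.25. Neither passed without any 1 of the 3 BP libraries or with the offset (adjusted p = 0.176 and 0.167). Both failed also without BdE 7, and Jak1 without BdE 6. Of 12 genes of the insulin-like growth factor system (25% called) 0 rose and 3 fell: Igfbp4 by 0.49, Igf2r by 0.48 and Insr by 1.85. Insr held 66.1, 21.4 and 27.97 CPM in BP and 7.52, 15.97 and 8.56 CPM in BdE, with BP 5 far above the other controls, and kept its call only without BdE 6. Igfbp4 and Igf2r did not pass without BP 5 or BP 6, and Igf2r failed also without BP 7 or BdE 7. The offset left 0 of 12 higher and 1 lower (median -0.24), and Igf2r and Insr did not pass with it (adjusted p = 0.0662 and 0.0656). Without BP 5, 0 of the 12 passed in edgeR's test (4 at an unadjusted p under 0.05), and 1 of the 11 interleukin 6 genes. In the Notch list 1 of 13 rose and 3 fell (30.8% called, beside 22.2% of all genes). Hes1, its target, rose by 0.59, and Notch1, Rbpj and Maml1 fell by 0.38, 0.27 and 0.54; Notch1 and Rbpj did not pass with any 1 of the 6 libraries left out or with the offset (adjusted p = 0.163 and 0.24), which gave 2 of 13 higher and 1 lower (median -0.24). None of these 4 passed without BP 7, when 0 of the 13 passed in edgeR's test (5 at an unadjusted p under 0.05). Hes1 failed also without BP 5, BdE 6 or BdE 7, and Maml1 without BP 6 or BdE 7.

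Of 18 histone lysine demethylase genes 0 rose and 3 fell (16.7% called, beside 22.2% of all genes), and these 3 passed also with each library left out. The length offset gave 1 of 18 higher and 3 lower. Kdm5c, an X-linked eraser of H3K4 methylation, held 117, 116 and 155 CPM in BP and 67.9, 70.5 and 64.6 CPM in BdE and fell by 0.93 (SE 0.13, adjusted p = 0.00935). Kdm4a fell by 0.81 (SE 0.070, adjusted p = 0.00457) and Kdm2a by 0.52 (SE 0.060, adjusted p = 0.00716). Of 268 genes with Zfp symbols 36 rose and 15 fell (19.0% called, beside 22.2% of all genes, median 0.12). Zfp182 rose by 0.78, Zfp692 by 0.76 and Zfp445 by 0.58, and Zfp609 fell by 0.63, with Zfp445, a regulator of imprinting, at 118, 108 and 113 CPM in BP and 169, 165 and 170.2 CPM in BdE. Without BP 6, 14 of the 268 passed.

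In the list of Prrc2 and RNA granule genes 1 of 12 rose and 4 fell. Prrc2b, which promotes translation initiation, held 60.7, 70.2 and 77.8 CPM in BP and 23.5, 30.2 and 21.7 CPM in BdE and fell by 1.47 (SE 0.16, adjusted p = 0.00634), whereas its BE libraries held 86.5, 103 and 97.4 CPM, at or above the controls. Prrc2c fell by 0.65 (SE 0.10, adjusted p = 0.0119), Caprin1 by 0.47, and Tial1 rose by 0.33; Caprin1 kept its call only without BdE 5 or BdE 6 and Tial1 only without BP 5. Without BP 6, 2 of the 12 passed. The length offset gave 2 of 12 higher and 2 lower, and Caprin1 did not pass with it (adjusted p = 0.0626). Of 31 antioxidant genes 5 rose and 3 fell (median 0.06; 25.8% called, beside 22.2% of all genes). The offset gave 2 higher and 4 lower (median -0.028). Txnrd1, thioredoxin reductase, fell by 0.51 (SE 0.073, adjusted p = 0.00966), while Prdx2 rose by 0.30, Gsta2 by 0.50 and Gsta4 by 0.25. Prdx2, Gsta2 and Gsta4 did not pass without BP 5, BP 6, BP 7 or BdE 7, and Gsta2 and Gsta4 failed also without BdE 5. Gsta2 and Gsta4 did not pass with the offset (adjusted p = 0.121 and 0.441). Without BP 6, 1 of the 31 passed. Of 18 glycolysis genes 11.1% were called, beside 22.2% of all genes. Gapdh rose by 0.94 (adjusted p = 0.0138), from 58.9, 73.2 and 77.5 to 109, 139 and 154 CPM, and Pgk1 fell by 0.48. Gapdh has many near-identical pseudogenes and did not pass without BP 6, when 0 of the 18 passed (3 at an unadjusted p under 0.05). The offset gave 1 of 18 higher and 2 lower. Pgk1 did not pass without any 1 of the 3 BP libraries or without BdE 7. Actb, another common reference gene, rose by 0.50 and did not pass without BP 5, BP 6 or BdE 7.

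The BE libraries share the PBS controls with this comparison and are set beside it only as levels. For Sqle, BE 6, 7 and 8 held 82.4, 17.9 and 17.3 CPM, for Col3a1 156, 55.2 and 59.1 CPM, for Adgre1 24.7, 4.70 and 4.92 CPM and for Rhox8 131, 296 and 274 CPM. In each of these 4 genes BE 6 lay on the side of the controls and BE 7 and 8 on that of BdE. Abl1 and Ccdc71 were high in all 3 BE libraries, at 172, 137 and 131 and 66.04, 66.04 and 65.98 CPM, as in BdE. Kdm2a held 155, 157 and 164 CPM in BE, Prrc2b and Cdc42se1 the values given above, and in these 3 genes no BE library lay within the range of BdE.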

How the data were processed

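Testis RNA of 9 libraries was measured by sequencing, and the 3 BP and 3 BdE libraries were compared. The deposited table holds whole-number counts per gene and FPKM values made by the authors, per the file headers. The submitters' processing notes name Bowtie 0.12.2 and mm8 with no role. Gene coordinates in the table equal those of GENCODE M21 (GRCm38) for 51957 genes (93.8%), and coordinates are given on that build. How reads were aligned and counted, and whether by strand, is not stated in those sources.

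Genes with an FPKM of 1 or more in 3 or more of the 6 libraries entered a test of the deposited counts with edgeR 4.0.16 in R 4.3.3 (TMM scaling, quasi-likelihood test, 3 against 3 libraries, no covariate), with Benjamini-Hochberg adjustment over all genes tested and a threshold of 0.05. Levels are CPM after TMM scaling. Totals of 57923652 to 70103125 counts put the level of 3 counts at 0.0428 to 0.0518 CPM; floors and intervals describe only counting error. The code was tested on simulated data. Alternatives were DESeq2 1.42.0, its size factors, library totals, no mitochondrial genes, no FPKM filter, an FPKM of 5, all 9 libraries, a lowess offset on gene length, a replicate block, limma 3.58.1 on log2(FPKM + 1) and log2(FPKM + 0.1), and each library left out.

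Named genes are the 15 largest rises and falls with at least 10 counts in every library and no overlap between groups (predicted genes and pseudogenes aside), the 10 smallest p-values, up to 4 called members of each of 51 lists by smallest p (the 2 most abundant where fewer than 2 passed), and a set of reference genes. Comparison, lists and rules were chosen with earlier results of these data known. One item that these rules name is not reported here.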

Additional observations from a re-analysis of the deposited data

Results flagged for a closer look

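Below the FPKM filter, 7 genes had at least 10 counts in each BdE library and none in any BP library. Among them Trpv1, the capsaicin receptor gene, had 10, 12 and 11 counts in BdE 5, 6 and 7, and the predicted gene Gm20482 had 337, 229 and 21. The reverse pattern, at least 10 counts in each BP library and none in any BdE library, was seen in 12 genes. Among them Ms4a1, which codes for the B cell protein CD20, had 28, 12 and 10 counts in BP 5, 6 and 7, and Pklr, a pyruvate kinase gene, had 32, 12 and 25. These genes entered no test, and the named ones were chosen after their values were seen.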

How the results depend on the processing

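All 202 called genes named above kept their sign under every alternative that could fit them. Their groups did not overlap, so removing 1 library could hardly turn a sign. The other alternatives reused the same libraries, so the kept signs are not separate support. The number past the threshold was 3113 with 6 libraries (1384 higher, 1729 lower). Without the FPKM filter 1719 passed (573 higher, 1146 lower), and with all 9 libraries 1 passed (1 higher, 0 lower). With a replicate block 0 passed (0 higher, 0 lower; 4578 at an unadjusted p under 0.05), and with the block and the length offset 0 (0 higher, 0 lower; 4322 unadjusted), all in edgeR; DESeq2 without a block called 4444. Residuals of same-numbered libraries correlated at -0.0928, 0.0598 and -0.118, those of differently numbered ones at -0.101 to 0.184. With 3 libraries a group these values cannot decide whether the numbers pair the libraries, and the labels do not say. With 1 library left out the count ran from 870 to 3181, the higher calls from 288 to 1332 and the lower from 582 to 1849. The cause of these differences was not tested. Among genes that did not pass, the sign of Ddx4 turned without BP 7 (-0.31) and BdE 6 (-0.12; up to 0.55 with other libraries left out), of Sox9 likewise (0.0096 and 0.0031; down to -0.13), and of Sycp3 without BP 7 (-0.071; up to 1.00). Chm turned with the length offset (0.0998), with block and offset (0.098), and without BP 6 (0.045) or BdE 6 (0.055; down to -0.078). Nr5a1 turned with library totals (-0.042), with limma (-0.050 and -0.051), and without BP 5 (-0.039) or BdE 5 (-0.026; up to 0.087). Of 31 lists with a median of at least 0.2 in size, 27 kept its sign under every alternative; the others were both spermatogonia lists, red blood cells and adipocytes. Depth limits genes near the floor, and 3 libraries a group limit the rest.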

Other observations

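Gene Ontology terms, chosen after values were seen, gave the following shares beside 9.53% higher and 14.1% lower over the 11583 tested genes with any term. Of 51 basement membrane genes 49.0% fell and 5.88% rose, and of 152 cell adhesion genes 35.5% fell and 5.26% rose. With the length offset 45.1% and 28.95% fell, beside 10.2% of all genes tested. Of 308 lipid metabolism genes 22.7% fell, of 533 genes of the endoplasmic reticulum membrane 21.6%, and of 783 Golgi genes 20.4%. The offset lowered these shares to 17.9%, 16.3% and 15.96%. Of 177 ribosome genes 26.6% rose and 3.39% fell (16.9% and 4.52% with the length offset), and of 334 genes of the mitochondrial inner membrane 16.8% rose and 11.98% fell (12.3% and 10.8% with the offset). Of 3539 nuclear genes 10.96% rose and 11.1% fell (11.3% and 8.025% with the offset).

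Overlapping entries for the gene Nnt, a mitochondrial transhydrogenase, divided its counts differently between libraries. The entry ENSMUSG00000116207 had 3959, 2814 and 5219 counts in BP 5, 6 and 7, 0 in BdE 5 and BdE 7 and 4269 in BdE 6. The entry ENSMUSG00000025453 had 6939 and 6156 counts in BdE 5 and BdE 7 and 121 in BdE 6. Gpx3, a secreted glutathione peroxidase gene, held 465, 101 and 101 CPM in BP and 62.4, 71.5 and 65.2 CPM in BdE and did not pass (adjusted p = 0.0958).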
